A study of Mus musculus with 30 samples.

Results

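The miR-183 family was expressed alone in iMOP cells, and 3 arrays of the transfected cells (p183T) were set against 3 arrays of cells that received the same vector without the family (pT). These 6 arrays were chosen by their labels from the 30 arrays of the series, and all 25341 transcript clusters with a gene symbol, of 41345 on the array, entered the comparison. The p183T plasmid carried the miR-183, miR-96 and miR-182 hairpins in a human beta-globin intron together with red fluorescent protein (RFP), the pT plasmid carried RFP only, and the EF-1 alpha promoter, which is active in most cell types, drove both. Further iMOP groups serve for comparison, namely p183AT (the family with Atoh1 and RFP), pAT (Atoh1 and RFP) and unmanipulated cells (UT). Mouse embryonic stem cells (mESCs) received the same plasmids. RFP-positive transfected cells were sorted 48 h after transfection, and total RNA was hybridized to Affymetrix mouse whole-transcript arrays. iMOP cells are a monoclonal line, made from SOX2-expressing otic progenitors of the embryonic mouse cochlea by transient c-Myc and grown as floating spheres with basic FGF, so every value here comes from 1 clone. Each group held 3 biological replicates.

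The miR-183 family is 3 microRNAs made from neighbouring hairpins and expressed together in sensory cells, among them the hair cells of the inner ear. A hairpin is cut to a short mature strand, which guides the silencing complex to messenger RNAs. The seed of the strand, bases 2 to 8, pairs with sites in their 3′ untranslated regions. Paired messages are translated less and decay faster, and such effects on a single message are usually small. The arrays read the hairpins and the messages, not mature microRNAs or proteins.

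The mature 5′ strands are shown because the seed decides which messages can pair, with the seed in capitals. They were taken from RefSeq with the GRCm38.p6 build, where all 3 hairpins matched an entry.
miR-96-5p, chr6:30169506-30169528, minus strand: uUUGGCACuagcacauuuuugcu
miR-182-5p, chr6:30165962-30165986, minus strand: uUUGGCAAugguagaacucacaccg
miR-183-5p, chr6:30169711-30169732, minus strand: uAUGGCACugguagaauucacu
No pair of these strands had the same seed. Counted from the 5′ end, miR-96-5p and miR-182-5p differed within it only by C8A and miR-96-5p and miR-183-5p only by U2A, the base of miR-96-5p being given first, while miR-182-5p and miR-183-5p differed by both U2A and A8C. One other mouse microRNA in the table, miR-1271-5p, had the seed of miR-96-5p, and none had that of miR-182-5p or miR-183-5p. The array carries 1 cluster for each whole hairpin, shown next with the mature 5′ strand in capitals.
Mir96, chr6:30169446-30169551, minus strand: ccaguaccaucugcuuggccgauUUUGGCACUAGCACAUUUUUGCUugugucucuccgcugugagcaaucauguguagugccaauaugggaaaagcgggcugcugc
Mir182, chr6:30165918-30165992, minus strand: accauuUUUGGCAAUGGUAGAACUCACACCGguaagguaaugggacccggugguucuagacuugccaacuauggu
Mir183, chr6:30169668-30169737, minus strand: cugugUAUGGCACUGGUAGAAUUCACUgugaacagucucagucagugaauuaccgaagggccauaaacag

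Signals are RMA values on the log2 scale, so a difference of 1 is a doubling. The median of all tested clusters lay between 4.87 and 4.92 on the p183T arrays and between 4.83 and 4.91 on the pT arrays. Sox2 and Eya1, transcription factors of otic progenitors, averaged 7.94 ± 0.59 and 8.83 ± 0.08 in p183T cells, against 7.72 ± 0.35 and 8.56 ± 0.34 in pT cells (SD, n = 3 each). Dlx5 averaged 9.68 in p183T and 9.89 in pT cells, whereas Pax2 and Pax8 were at 3.84 and 3.75 in p183T and 3.81 and 3.79 in pT cells, in the dim range. Of the 42 measured otic genes, 14 reached log2 6 in p183T cells and 15 in pT cells. Pluripotency markers reached it for 1 of 25 genes in either group. Among fibroblast markers, 4 of 20 reached it in p183T cells and 3 in pT cells, and 6 of 14 glial markers did in each. Replicate 2 of pT stood apart: its differences from the other pT arrays, over clusters at or above log2 6, had a mean SD of 0.47, against 0.27 to 0.31 for the 3 p183T arrays and 0.41 and 0.37 for pT replicates 1 and 3. Several values are given without it as well.

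All 3 hairpins rose with p183T. Mir182 read 7.84, 8.40 and 7.97 on the p183T arrays, against 3.52, 4.09 and 3.60 on the pT arrays. Mir96 read 7.67, 7.60 and 6.92 in p183T cells and 3.72, 3.62 and 3.53 in pT cells. Mir183 read 6.71, 7.40 and 6.82 in p183T cells and 3.29, 3.38 and 3.39 in pT cells. Every p183T array lay above every pT array for each hairpin, by far more than the replicates differed. The log2 difference was 4.33 for Mir182 (SE 0.20, adjusted p = 4.39e-10), 3.77 for Mir96 (SE 0.19, adjusted p = 1.41e-09) and 3.62 for Mir183 (SE 0.22, adjusted p = 1.66e-08), in limma's moderated test with Benjamini-Hochberg adjustment over all tested clusters. These are 20.1-, 13.6- and 12.3-fold differences in signal. The pT values were in the dim range of the array, so the folds are differences of signal and not of copies. In these bulk samples, a lower share of cells with an RNA and less of it per cell cannot be told apart.

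The hairpins had the same direction in arrays that the comparison did not use. Between p183AT and pAT iMOP cells the differences were 3.23 for Mir182, 3.04 for Mir96 and 2.78 for Mir183, and these 3, 0.0118% of the tested clusters, were the ones that passed the test. Mir182 read 7.01, 7.21 and 6.83 in p183AT cells, against 3.34, 4.08 and 3.96 in pAT cells, so every p183AT array also lay below every p183T array. The difference with Atoh1 minus that without was -1.11 for Mir182 (SE 0.28, unadjusted p = 0.0010), -0.74 for Mir96 (SE 0.27, unadjusted p = 0.0147) and -0.84 for Mir183 (SE 0.31, unadjusted p = 0.0141), and none of these passed after adjustment over all clusters (adjusted p = 0.9998 for each). In limma's test of this difference 0 of all clusters passed, while 893 had an unadjusted p under 0.05. In mESCs the differences between p183T and pT were 5.18, 5.54 and 4.31 for Mir182, Mir96 and Mir183, again the called clusters. The iMOP minus mESC difference was -1.77 for Mir96 (SE 0.40, adjusted p = 0.69), -0.85 for Mir182 (SE 0.45) and -0.68 for Mir183 (SE 0.46). In UT iMOP cells Mir182 averaged 2.98 ± 0.09, Mir96 4.05 ± 0.29 and Mir183 2.73 ± 0.21 (SD, n = 3).

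**Figure D1:**
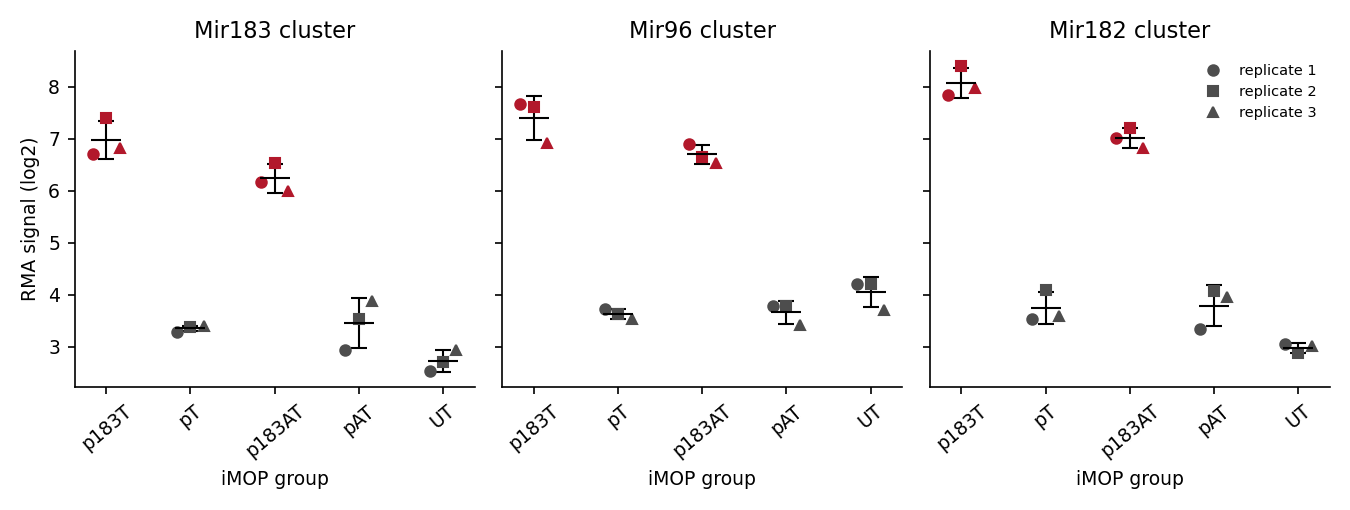
RMA signal (log2) of the 3 hairpin clusters on every iMOP array, with symbols for the replicate number, red for vectors with the family, and black bars for the mean and SD of 3 arrays. The p183T arrays lay between 6.71 and 8.40 and the pT arrays between 3.29 and 4.09; the p183AT arrays lay below the p183T arrays.

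The genes beside the hairpins' own locus on chromosome 6 (GRCm38.p6) were not called. Nrf1, a transcription factor of respiratory genes that lies on one side at chr6:30047985-30153458, read 6.23, 5.77 and 6.22 in p183T cells and 6.44, 6.21 and 6.11 in pT cells (difference -0.18, SE 0.16, unadjusted p = 0.26). Ube2h, a ubiquitin-conjugating enzyme on the other side at chr6:30211289-30304539, has a pair of clusters with differences of -0.18 and 0.21. Between Mir183 and Ube2h lies BB283400, at chr6:30176623-30178046. It read 3.99, 4.19 and 4.27 in p183T cells and 3.22, 4.43 and 3.82 in pT cells, which overlapped (difference 0.32, SE 0.23, unadjusted p = 0.17). Atoh1, the hair cell transcription factor that the other vectors carried, read 5.11, 5.46 and 5.61 in p183T and 5.36, 5.57 and 5.21 in pT cells. The groups overlapped for Atoh1 (difference 0.01, SE 0.19).

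Beyond the hairpins no cluster passed the test. The 3 clusters called higher were 0.0118% of the 25341 tested, and 0 clusters (0%) were called lower. At an unadjusted p under 0.05, limma gave 477 clusters higher (1.88%) and 503 lower (1.98%), together 3.87%. At a 1.5-fold difference together with an unadjusted p under 0.05, the thresholds of the study's methods, 40 clusters were higher (0.158%) and 68 lower (0.268%), and the split was 28 higher and 93 lower once each array was shifted to a common median. Both counts moved with single arrays: leaving out 1 array gave 65 to 152 higher and 94 to 177 lower, and without pT replicate 2 the order turned, to 152 higher and 94 lower. The methods' one-way comparison of the 6 arrays called 0 clusters after adjustment, the hairpins included, and gave 15 higher and 34 lower at the same thresholds. The lowest p after the hairpins belonged to Olfr553, an olfactory receptor gene, at 2.67 in p183T and 3.49 in pT cells (difference -0.82, adjusted p = 0.29), and without pT replicate 2 it became the only cluster called lower (difference -0.99, adjusted p = 0.021).

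The whole distribution of the remaining 25338 clusters was narrow and centred at 0. RMA brings arrays normalized as 1 set to a common distribution, so a median near 0 was largely set by the processing. The median log2 difference was -0.0027, the SD 0.17, and 50.7% of clusters were below 0. The 25th and 75th percentiles were -0.11 and 0.10, the 5th and 95th were -0.28 and 0.28, and 86.6% lay within 0.25 of 0. Only 111 clusters (0.438%) reached a 1.5-fold difference, 39 higher and 72 lower, and none reached a 2-fold difference. Of those 111, 98 were below log2 6 in both groups, and 13 were at or above it in at least one, the range called bright here. Among the 7901 bright clusters the SD of the difference between group means was 0.15. Between single arrays, over the bright clusters, the SD of the difference was 0.25 to 0.33 between p183T arrays and 0.31 to 0.52 between pT arrays. It was 0.21 to 0.34 between a p183T and a pT array of the same replicate number. A group mean averages several arrays, which by itself narrows the differences, so the 0.15 cannot be set directly against these single-array values.

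**Figure D2:**
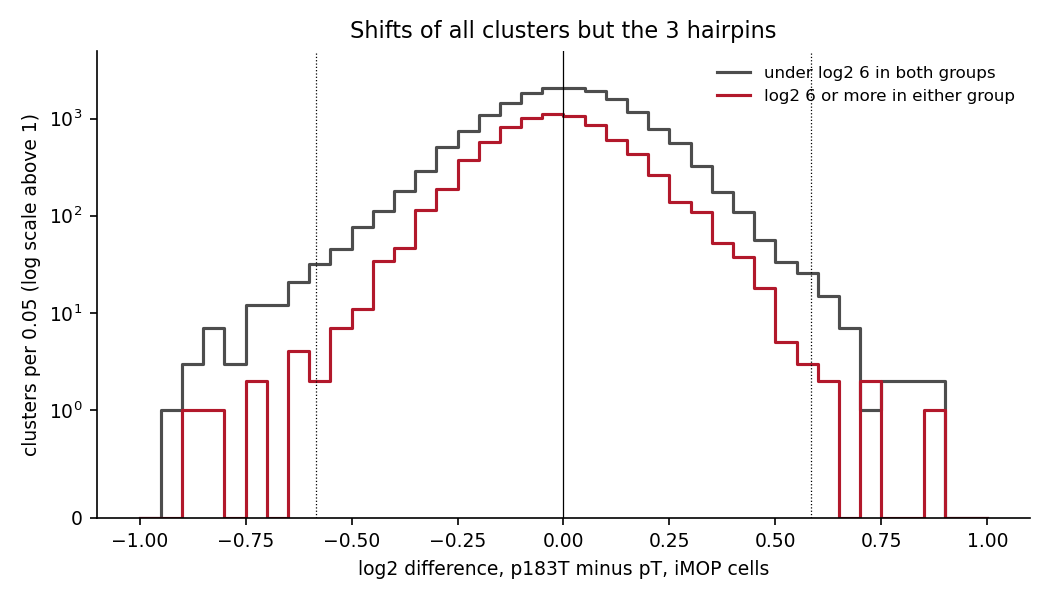
Number of clusters in steps of 0.05 of the log2 difference p183T minus pT (count axis logarithmic above 1) for bright clusters (red) and clusters under log2 6 in both groups (grey), without the 3 hairpins. Dotted lines mark a 1.5-fold difference; 13 bright clusters lie beyond them.

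The small shifts were not even across the range of signal. Over all clusters, the 3 p183T arrays lay above the 3 pT arrays for 838 (3.31%) and below them for 979 (3.86%). Among the 7904 bright clusters, hairpins included, they lay above for 114 (1.44%) and below for 299 (3.78%). From log2 8 to 9 the shares were 0.81% above and 4.61% below, whereas from log2 4 to 5 they were 4.97% above and 2.97% below. The median difference was 0.02 from log2 4 to 5, -0.04 from 8 to 9 and -0.05 from 9 to 10. Signs of medians this small depend on the normalization. Shifting each array to a common median lowered every difference alike, and the median over all clusters was then -0.035. Of the bright clusters, 54.6% were below 0, with a median of -0.02. That lean rested on single arrays: leaving out pT replicate 2 took the share below 0 to 69.3% and the median to -0.09, and leaving out pT replicate 1 took them to 42.9% and 0.03. With 1 array left out, more bright clusters lay wholly below than wholly above in each of the 6 cases, at 425 to 1460 below and 243 to 498 above, counts that are higher because fewer arrays had to be separated.

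**Figure D3:**
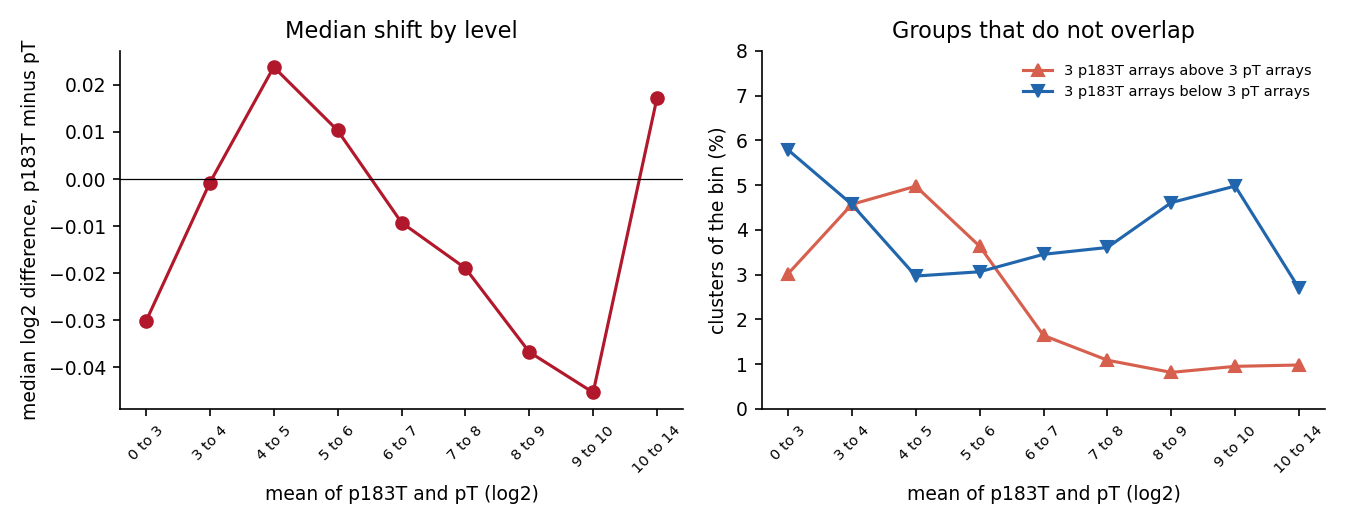
Left, median log2 difference p183T minus pT by the mean log2 signal of both groups. Right, share of clusters (%) in each range whose 3 p183T arrays all lay above (red) or all below (blue) the 3 pT arrays. Below outnumbers above at every range from log2 6 upward, with 4.61% and 0.81% from 8 to 9.

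Arrays of the family on the Atoh1 background offered the same genes in samples that the comparison did not use. Across the 7901 bright clusters, the difference p183T minus pT and the difference p183AT minus pAT had a Pearson correlation of 0.38 and a Spearman correlation of 0.33, and 0.35 and 0.32 without small nucleolar RNAs. Genes are not independent replicates, and the 12 arrays share the cell line, the platform and the deposited table. Some same-numbered arrays of these groups also deviated together from their group means, and others did not, with values given below. The part of this in the Pearson correlation was not tested. Leaving out 1 p183T or pT array gave 0.21 to 0.34. Of the 299 bright clusters that lay wholly below, 233 (77.9%) were below 0 between p183AT and pAT, where 52.8% of all bright clusters were, with a median of -0.11 against -0.01. Of the 111 that lay wholly above, 60 (54.1%) were above 0, where 47.2% of all were. In mESCs, where the correlation was 0.01 (-0.07 to 0.14 with 1 iMOP array left out), 192 of the 299 (64.2%) were below 0, as were 54.5% of all bright clusters.

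**Figure D4:**
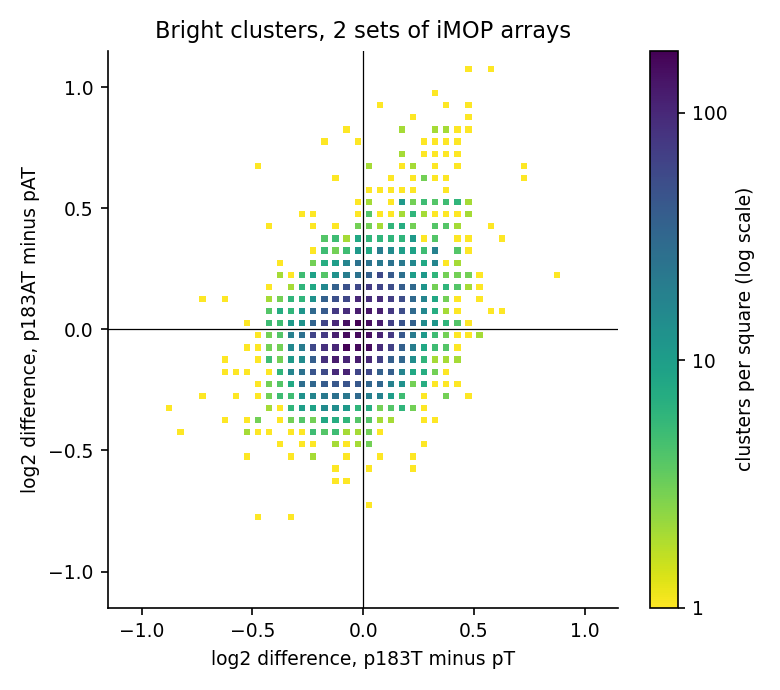
Bright clusters without the hairpins, counted in squares of 0.05 by the log2 difference p183T minus pT (horizontal) and p183AT minus pAT (vertical) in iMOP cells, with no array in common. The cloud is tilted, with a Pearson correlation of 0.38 across 7901 clusters, and lies mostly within 0.5 of 0 on both axes.

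Among bright genes with a cluster of their own and groups that did not overlap, Spry4, Dusp6, Dusp3 and Egr1 had the lowest differences, and none passed the test after adjustment. Spry4, a Sprouty protein that limits signalling from FGF and related receptors to ERK kinases, read 5.72, 5.66 and 6.36 in p183T cells, against 6.81, 6.60 and 6.89 in pT cells. The groups did not overlap (difference -0.85, SE 0.24, unadjusted p = 0.0024). Dusp6, a phosphatase that inactivates ERK, read 7.70, 7.60 and 8.08 in p183T cells, against 9.03, 8.39 and 8.44 in pT cells. All 3 p183T arrays were lower, and pT replicate 1 was the highest array (difference -0.83, SE 0.28, unadjusted p = 0.0092). Dusp3, another phosphatase of the same class, read 5.58, 5.79 and 5.44 in p183T cells and 6.63, 6.13 and 6.15 in pT cells. It had the lowest p of these genes (difference -0.70, SE 0.17, unadjusted p = 0.00071, adjusted p = 0.81). Egr1, an immediate early transcription factor induced by ERK signalling, read 7.24, 6.92 and 7.44 in p183T cells and 7.84, 7.75 and 7.84 in pT cells. Again no array overlapped (difference -0.61, SE 0.22, unadjusted p = 0.0137). Next in order was Tuba1b, a tubulin gene described below, with a difference of -0.56. After it came Sh2b2, an adaptor of receptor tyrosine kinases. Sh2b2 read 7.21, 7.05 and 6.90 in p183T cells and 7.49, 7.72 and 7.54 in pT cells (difference -0.52, SE 0.16, unadjusted p = 0.0044).

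With 1 array left out, the difference of Spry4 lay between -1.08 and -0.73, Dusp6 between -0.97 and -0.62, Dusp3 between -0.80 and -0.54, and Egr1 between -0.73 and -0.47; groups that do not overlap fix the sign. Between p183AT and pAT cells the differences were -0.31 for Spry4 and -0.44 for Dusp6, neither with an unadjusted p under 0.05, -0.10 for Egr1, and 0.15 for Dusp3. In mESCs they were -0.19, -0.12, -0.30 and -0.07 for Spry4, Dusp6, Egr1 and Dusp3. Dusp6 also has a dim cluster, at 3.69 in p183T and 3.80 in pT cells, with a difference of -0.11.

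**Figure D5:**
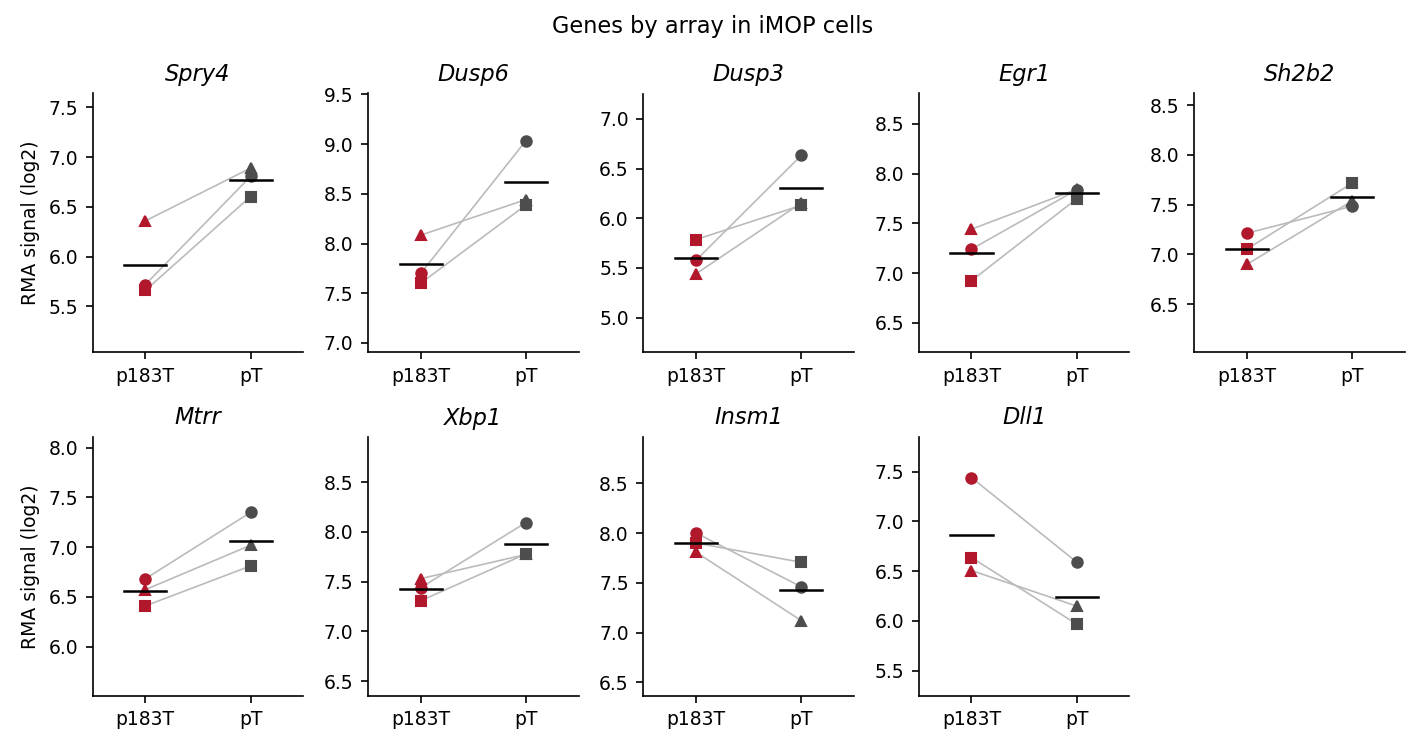
RMA signal (log2) by array for 9 genes in p183T (red, left) and pT (grey, right) iMOP cells; symbols and grey lines join arrays of the same replicate number and black bars are means of 3. The groups do not overlap for 8 of the genes, and overlap for Dll1, whose values are 6.51 to 7.44 in p183T and 5.97 to 6.59 in pT cells.

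Related genes were counted from lists. A list of 17 genes with a cluster of their own held 15 Sprouty, Spred and Dusp genes, Il17rd and Fgfbp3, but not Dusp3, described above. Of the 17, 0 passed the test, and 2 (Spry4 and Dusp6) were lower at an unadjusted p under 0.05, against 1.98% of all clusters; the one-way comparison also gave 2 lower. The list was written with earlier results of these data known and holds Spry4 and Dusp6, so its lean is not independent evidence. The median of the 17 was -0.12, against -0.0027 over all clusters. Of the 17, 13 were below 0, where 50.7% of all clusters and 54.6% of bright clusters were. With 1 array left out the median lay between -0.18 and -0.03. It was -0.05 between p183AT and pAT and -0.07 in mESCs. Among the others, Spry2 was at -0.23 (-0.36 without pT replicate 2), Spry1 at -0.14, Dusp1 at -0.13, Dusp4 at -0.12, and Spred1, Dusp5 and Il17rd, further inhibitors of the pathway, within 0.02 of 0. Of 27 immediate early and Ets genes, 0 passed, and 2 (Egr1 and Fosb) were lower at an unadjusted p under 0.05, with a median of -0.09. Fosb, a partner in the AP-1 factor, read 5.80, 5.60 and 5.90 in p183T cells and 6.23, 6.12 and 5.87 in pT cells, which overlapped. Of 28 FGF ligands and receptors (4 bright), 0 passed and 2 were lower at that p, with a median of 0.02. One was Fgf18, a ligand, at 6.12, 6.18 and 6.19 in p183T cells and 6.53, 6.47 and 6.49 in pT cells. No array crossed this small gap (difference -0.33, SE 0.13, unadjusted p = 0.0162). Fgf18 differed the other way between p183AT and pAT, by 0.19, and in mESCs, by 0.05. The other was Fgf5, at 5.07 in p183T and 5.62 in pT cells. Fgfr1, a receptor for the FGF in the medium, was at 7.43 in p183T and 7.29 in pT cells, a difference of 0.15 that was -0.00049 without pT replicate 2.

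The remaining genes of the 12 lowest, by the same limits, had various roles. Mtrr, which keeps methionine synthase active, read 6.68, 6.41 and 6.57 in p183T cells and 7.35, 6.81 and 7.02 in pT cells (difference -0.51, SE 0.15, unadjusted p = 0.0029). Pepd, a peptidase that releases proline, read 6.65, 6.39 and 6.66 in p183T cells and 7.11, 6.89 and 7.04 in pT cells (difference -0.45, SE 0.14, unadjusted p = 0.0047). Neither gene had a p183T array as high as a pT array. Tuba1b, an alpha tubulin, differed by -0.56, Mrps27, of the mitochondrial ribosome, by -0.49, Sntb2, a syntrophin of the membrane skeleton, by -0.45, and Rgs19, which shuts off G protein signalling, by -0.43. Xbp1, a transcription factor of the unfolded protein response, read 7.44, 7.31 and 7.53 in p183T cells and 8.09, 7.78 and 7.77 in pT cells (difference -0.46, SE 0.18, unadjusted p = 0.0205). Of these 12 genes, 11 were below 0 between p183AT and pAT cells, all but Dusp3, as were 52.8% of all bright clusters. In mESCs 11 were below 0, all but Tuba1b, as were 54.5% of all bright clusters. Bright clusters with several symbols or overlapping groups are not among the 12. Between p183AT and pAT the differences of the 12 genes ranged from -0.44 to 0.15.

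Fewer bright genes stood wholly higher than wholly lower, and again none passed the test apart from the hairpins. Zfp960, a zinc finger gene, read 6.24, 6.56 and 6.55 in p183T cells and 5.82, 4.78 and 6.05 in pT cells. Its difference of 0.90 (SE 0.30, unadjusted p = 0.0079) was 0.51 without pT replicate 2, the lowest array. Ppwd1, a prolyl isomerase, differed by 0.53 and by 0.25 without that array. Insm1, a zinc finger transcription factor of developing neurons and outer hair cells, read 8.0, 7.90 and 7.81 in p183T cells and 7.46, 7.71 and 7.12 in pT cells, with a difference of 0.47 (SE 0.18, unadjusted p = 0.0184) that was 0.61 without pT replicate 2. Mir99b, the hairpin of an unrelated microRNA, read 6.61, 6.93 and 7.13 in p183T cells and 6.38, 6.49 and 6.36 in pT cells (difference 0.48, SE 0.16, unadjusted p = 0.0075), and differed by -0.27 between p183AT and pAT. Gm6003 (0.48), Epm2aip1 (0.46, and 0.25 without pT replicate 2), Mir3081 (0.45), Ighg3 (0.44) and Igsf9 (0.40) completed the 9 highest after the hairpins among bright genes with a cluster of their own and groups that did not overlap. Of these, 7 were above 0 between p183AT and pAT, as were 47.2% of all bright clusters. The adjusted p was 0.9998 or more for each of the 9. All other microRNA hairpins, 503 clusters, had a median of -0.02, with 11 higher (2.19%, against 1.88% of all clusters) and 23 lower (4.57%, against 1.98%) at an unadjusted p under 0.05 and 0 called. Only 45 of the 503 were bright, and other mostly dim kinds of gene had similar shares lower. At that p, 4.33% of olfactory receptor clusters were lower (4 of 1108 bright), as were 6.06% of vomeronasal receptor clusters (5 of 297 bright).

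Genes named in the study as predicted targets lowered by the family in iMOP cells were picked on these same arrays, so their direction here is not independent evidence. Those with a cluster of their own here numbered 9. All 9 were below 0, where 50.7% of all clusters and 54.6% of bright clusters were. Their median was -0.30, and 0 passed the test. At an unadjusted p under 0.05, 3 were lower by limma, against 1.98% of all clusters, and 2 by the one-way comparison. Besides Spry4 and Egr1 the third was Ankrd27, a regulator of endosome traffic, at 6.93, 6.53 and 6.66 in p183T cells and 7.41, 6.92 and 7.16 in pT cells. Its groups overlapped slightly (difference -0.45, SE 0.17, unadjusted p = 0.0140). Plod2, which hydroxylates collagen lysines, read 6.57, 6.85 and 6.76 in p183T cells and 7.50, 6.57 and 7.40 in pT cells, so pT replicate 2 lay with the p183T arrays. Its difference was -0.43 (SE 0.22, unadjusted p = 0.064) and -0.72 without pT replicate 2. Slc39a1, a zinc importer, differed by -0.30, Spry3 by -0.27, Tbx1, a T-box factor of the developing ear, by -0.22, the adhesion receptor gene Adgrl2 by -0.12 and Kmt2a, a histone methyltransferase, by -0.06, each with overlapping groups. Without pT replicate 2, Tbx1 was at -0.045, Adgrl2 at -0.52 and Kmt2a at -0.35. Between p183AT and pAT all 9 were below 0, where 52.8% of all bright clusters were. They ranged from -0.45 for Slc39a1 to -0.07 for Adgrl2, and 0 had an unadjusted p under 0.05. Arrays of p183AT also served to pick some of them, so these values are no independent evidence either.

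Targets of the family known from other cells did not lean either way. The median of 34 measured genes of 38 was 0.0054, with 16 below and 18 above 0, and it was -0.01 between p183AT and pAT and -0.05 in mESCs. With 1 iMOP array left out it lay between -0.09 and 0.06. None passed the test, and 1 (Egr1) was lower at an unadjusted p under 0.05, against 1.98% of all clusters. Foxo3, a stress-responsive transcription factor of this list, read 6.12, 6.33 and 6.17 in p183T cells and 6.19, 6.07 and 5.66 in pT cells (difference 0.23, SE 0.17). The 8 genes that the study names as predicted targets in mESCs had a median of -0.05 in iMOP cells, with 0 at an unadjusted p under 0.05. Of 28 genes of microRNA processing and silencing, 0 passed or had an unadjusted p under 0.05, and their median was 0.08. Messages with seed matches could not be grouped, since sequences of 3′ untranslated regions were not used here.

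Genes of the ear and of differentiation showed no call. For 42 genes of otic progenitors and supporting cells the median was 0.05 and 0 had an unadjusted p under 0.05. Of 48 hair cell genes only 7 were bright, so their median of 0.0087 came mostly from dim clusters. At that p 0 were higher and 1 lower, against 1.88% and 1.98% of all clusters. The one-way comparison gave 1 higher and 1 lower. The lower gene was Gpx2, a glutathione peroxidase, at 3.66, 2.82 and 2.32 in p183T cells and 3.91, 3.69 and 3.64 in pT cells (difference -0.81, unadjusted p = 0.0037), dim on all 6 arrays. The 3 p183T arrays lay above the 3 pT arrays for 5 of the 48 and below them for 1, against 3.31% and 3.86% of all clusters. Gfi1, a hair cell transcription factor, read 6.26, 6.30 and 6.71 in p183T cells and 6.10, 6.28 and 6.10 in pT cells (difference 0.26, SE 0.13, unadjusted p = 0.065), an overlap of 1 array. Of 35 Notch genes, 1 was higher and 1 lower at an unadjusted p under 0.05. Dll1, the ligand, read 7.44, 6.64 and 6.51 in p183T cells and 6.59, 5.97 and 6.15 in pT cells, with p183T replicate 1 the highest (difference 0.63, SE 0.22, unadjusted p = 0.0099), against 0.07 between p183AT and pAT. Its other cluster differed by 0.16. Dtx4, a Deltex ubiquitin ligase, was at 7.23 in p183T and 7.58 in pT cells (difference -0.34). Of 38 neuronal genes (13 bright), 1 (Insm1) was higher at that p, with a median of 0.02. Actin regulators (44 genes, 32 bright) had a median of 0.01 and interferon-stimulated genes (34 genes, 1 bright) of 0.06. For p53 targets (26 genes, 14 bright) it was -0.05, and for cholesterol synthesis (22 genes, 20 bright) -0.0089. These lists had 0 members at an unadjusted p under 0.05. However, the one-way comparison gave 1 actin regulator lower and 2 interferon-stimulated genes higher.

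A pair of lists of abundant genes lay slightly lower, without a call. Of 36 cell cycle genes 27 were below 0, against 54.6% of all bright clusters, with a median of -0.08 in this comparison and -0.08 between p183AT and pAT. At an unadjusted p under 0.05, 0 were higher and 2 (Gins2 and Ccnd2) lower, against 1.88% and 1.98% of all clusters. Gins2, of the replication helicase, read 7.05, 6.92 and 6.96 in p183T cells and 7.56, 7.25 and 7.23 in pT cells (difference -0.37, SE 0.14, unadjusted p = 0.0165). Mcm5, of the same helicase, read 9.11, 9.17 and 9.27 in p183T cells and 9.55, 9.46 and 9.46 in pT cells (difference -0.30, unadjusted p = 0.094). For both, each p183T array was below each pT array. Of 27 genes of the unfolded protein and amino acid stress responses, 22 were likewise below 0, with a median of -0.12 here and 0.04 between p183AT and pAT, and Xbp1 was the member at an unadjusted p under 0.05. With 1 array left out the median lay between -0.18 and -0.03 for the cell cycle list and between -0.22 and -0.07 for the stress list.

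Small nucleolar RNAs (snoRNAs), guides for chemical marks on ribosomal RNA, had a higher median than protein-coding genes and also differed widely between replicates. Over 97 clusters the median difference was 0.25, against -0.0050 over 20158 protein-coding clusters, and 0 clusters passed the test. The median snoRNA signal was 9.03, 10.06 and 9.65 on the p183T arrays and 8.43, 10.22 and 9.08 on the pT arrays. Replicate 2 was the highest of each group, and the difference of that pair was -0.14, against 0.43 and 0.40 for pairs 1 and 3. No snoRNA cluster had its 3 p183T arrays above its 3 pT arrays. The median over the bright snoRNAs was -0.06 without pT replicate 1 and 0.66 without pT replicate 2. Between p183AT and pAT the median of the 97 was 0.39, and in mESCs it was -0.16. The part of these RNAs in the other shifts was not tested beyond the correlation given without them.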

How the data were processed

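Per the labels, total RNA of RFP-positive sorted cells was hybridized to GeneChip Mouse Gene 2.0 ST arrays. The authors normalized the arrays with RMA in Affymetrix Expression Console 1.4.1.46, per the submitters' processing notes, and deposited log2 signals for 41345 clusters on 30 arrays. The sources used here do not say which arrays were normalized as 1 set. Gene symbols came from the platform annotation (23521 clusters with 1 symbol, 1820 with several, 16004 without), and coordinates and microRNA sequences from RefSeq (GRCm38.p6). A gene with several clusters was read from the one of highest mean.

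A linear model with 1 mean per group was fitted to the 15 iMOP arrays with limma 3.58.1 in R 4.3.3 (lmFit, eBayes), with Benjamini-Hochberg adjustment over the 25341 clusters with a symbol and a threshold of 0.05. The mESC values came from the same model over 30 arrays. The fitting script was tested on simulated data. Arrays with the same replicate number in p183T and pT deviated together from their group means. The correlations over bright clusters were 0.51, 0.35 and 0.39, against -0.37 to -0.04 for different numbers. Centring each group on its 3 arrays pushes the values for different numbers below 0 when those for the same number are above it. The labels give no pairing, and same-numbered p183AT and pAT arrays did not show it throughout (-0.42, 0.04 and 0.12). Values for replicates 1, 2 and 3 were 0.11, 0.19 and 0.46 for p183AT and p183T, and 0.16, 0.43 and 0.16 for p183T and pAT. They were 0.47, 0.26 and -0.16 for pAT and pT, and -0.17, -0.20 and 0.57 for p183AT and pT. With UT they lay between -0.22 and 0.20. The main model used no pairing. The labels call the replicates biological without saying whether they were separate cultures, so p-values measure the spread between these arrays. With 3 arrays a group, their number limits the precision; the arrays give no counts.

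Named genes were Mir183, Mir96, Mir182 and Atoh1, genes the study names for the family in iMOP cells, called clusters, the 12 highest and 12 lowest bright single-symbol clusters with groups that do not overlap, and the 2 bright members of each list with the lowest p. Olfr553, Fgf5, Gpx2, Ccnd2, the Sprouty and Dusp genes named by value alone, marker genes and locus neighbours were named after their values were seen. Members and lists were chosen with earlier results of these data known. Lists were described by counts and medians, with no test.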

Additional observations from a re-analysis of the deposited data

How the results depend on the processing

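The 3 hairpins were called under every alternative run except the methods' one-way comparison of 6 arrays, which called 0 (adjusted p = 0.47 for each). The replicate block changed no call, in the fit of 15 arrays or, chosen after seeing the data, with only the 6 compared arrays: 3 clusters were higher and 0 lower, with 40 and 70 clusters past 1.5-fold and an unadjusted p under 0.05 in the first and 40 and 68 in the second. One cluster was called lower with all clusters of the table (without a symbol and under log2 4 on all 6 arrays) and 1 without pT replicate 2. Leaving out each array gave 3 clusters called higher and 0 to 1 called lower. At 1.5-fold and an unadjusted p under 0.05, these fits gave 65 to 152 higher and 94 to 177 lower. The same counts were 342 and 421 with all clusters of the table, 9 and 7 with dim clusters left out (a filter that removes most tested clusters), and 15 and 34 with the one-way comparison; the cause was not tested for the last. The SD over all clusters was 0.18, and 0.25 with those without a symbol. The median stayed within 1 SD of the array medians under every alternative. It was -0.035 after each array was shifted to a common median, against -0.0027 in the main fit.

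For genes that were not called, some signs turned. Atoh1 was -0.021 after a shift to a common median and -0.012 after renewed quantile normalization. Over the fits without 1 array, the difference ranged from -0.10 to 0.15 for Atoh1, -0.52 to 0.13 for Adgrl2, -0.35 to 0.089 for Kmt2a, -0.10 to 0.41 for Tut4, -0.00049 to 0.27 for Fgfr1, -0.015 to 0.23 for Col5a1, -0.22 to 0.20 for Pdgfra and -0.10 to 0.036 for Klf2. In these cases the cause was not tested. Of the 60 named genes' values under the alternatives, 938 kept direction and side of the threshold, 17 turned and 3, the hairpins in the one-way comparison, lost the call. Seed match groups and their alternatives were not run, since sequences of 3′ untranslated regions were not used here. Signal near background limits what small shifts of dim genes can show.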
